A study of Oryza sativa with 6 samples.

Results

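CAB1R, LTD and PSAH, nuclear genes that serve photosynthesis, were followed here in rice roots, an organ that does not photosynthesise. Each was found through its RefSeq name in a table of 14662 measured genes, and each was read by a single probe set, a group of short array probes summarised to 1 signal. They make 3 of 14662 genes. They were selected on the differences of their own signals between 0 h, 6 h and 24 h on these same arrays, so those differences are described without p-values, and nothing is read from whether they pass a threshold. The RefSeq entries are LOC4346803 for CAB1R, LOC4343402 for LTD and LOC4339593 for PSAH. Coordinates are not printed, because no source used here names the genome build of the array design.

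The roots came from 3-week-old Oryza sativa plants of the cultivar Swarna MTU7029. The controls were 2 samples of untreated roots taken at 0 h. The other roots were taken 6 h and 24 h after a suspension of Rhodotorula mucilaginosa JGTA-S1, a pigmented yeast, had been added to the plants, with 2 samples and 2 arrays at each time. Untreated roots kept for 6 h or 24 h are not among the 6 arrays, so the yeast and the elapsed time, including the hour of the day, cannot be told apart. The labels do not say whether the 2 samples of a time came from separate plants, so the spread between them may be technical. In whole roots, fewer cells of a type and less RNA per cell cannot be told apart either.

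Light-harvesting proteins hold chlorophyll in the thylakoid membrane of the chloroplast and pass absorbed energy to the photosystems. CAB1R encodes a chlorophyll a/b binding protein of this family. Such proteins are made in the cytosol, enter the plastid and are handed to a signal recognition particle of the stroma, and in Arabidopsis LTD is known as the protein that makes this handover. PSAH encodes subunit H of photosystem I, which in Arabidopsis takes part in docking mobile light-harvesting complexes. Root plastids are mostly colourless, and nuclear photosynthesis genes are known to be kept low in roots.

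The arrays gave signals on a log scale, read as log2. The controls differed from the other arrays in ways that touch every value below. The SD of signal over all probe sets was 1.82 and 1.62 at 6 h and 1.79 and 1.75 at 24 h, against 1.50 and 1.46 at 0 h, and the 2 control arrays correlated with each other at 0.868, against 0.936 for the 6 h pair and 0.976 for the 24 h pair. The median of all genes differed by 0.20 between 6 h and 0 h and by 0.26 between 24 h and 0 h. The part of this in the differences of the 3 genes was not tested, apart from the scalings given below. Of 15 genes fixed as root markers, YSL15, an iron-phytosiderophore transporter, read 10.05 to 10.51 and LSI2, a silicon efflux carrier, 8.78 to 9.17 over the 6 arrays. The signals of the 15 lay between percentiles 17.4 and 99.8 of the arrays. At 6 h 12 of the 15 read higher than the controls, with a median of 0.57, beside 61.4% of all genes. At 24 h 10 of the 15 did (66.7%), with a median of 0.10, which was near the 64.3% of all genes. At both times 0 passed. Both 6 h arrays were above both controls for 8 of the 15 and below them for 1, beside 34.3% and 14.6% of all genes. Both 24 h arrays were above both controls for 7 and below them for 3, beside 42.6% and 16.3%. The part of these root marker readings in the differences of the 3 genes was not tested.

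In the deposited values CAB1R was low at 6 h and near the control level at 24 h. Its log2 signal was 5.61 and 5.88 on the 0 h arrays, 4.77 and 4.59 on the 6 h arrays, and 5.93 and 5.41 on the 24 h arrays. Both 6 h arrays lay below all 4 others, and the 24 h arrays lay on either side of the controls. Averaged over the 2 arrays of a time (± SD), the 0 h signal was 5.74 ± 0.19, the 6 h signal 4.68 ± 0.13 and the 24 h signal 5.67 ± 0.36 (n = 2 each). The difference between 6 h and 0 h was -1.06 ± 0.32 on the log2 scale (SE), so that the 6 h signal was 0.479 times that at 0 h. Between 24 h and 0 h it was -0.07 ± 0.32, and between 24 h and 6 h it was 0.99 ± 0.32, a signal 1.99 times that at 6 h. The differences between adjacent times exceeded the spread between arrays of a time, whereas that between 24 h and 0 h did not.

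LTD was lower at each later time. Its log2 signal was 2.99 and 3.43 on the 0 h arrays, 2.14 and 2.18 on the 6 h arrays, and 1.52 and 1.51 on the 24 h arrays. No 2 times overlapped, and the arrays of the later times lay close together. Its mean (± SD) for the 0 h arrays was 3.21 ± 0.31, for the 6 h arrays 2.16 ± 0.03 and for the 24 h arrays 1.51 ± 0.0020 (n = 2 each). The difference from 0 h was -1.05 ± 0.30 at 6 h and -1.70 ± 0.30 at 24 h (SE), which makes the signal 0.482 and 0.309 times that at 0 h. Between 24 h and 6 h it was -0.64 ± 0.30. The 24 h signals lay under the lower quartiles of their arrays, 1.93 and 1.98. By its mean over all 6 arrays LTD lay in the lowest 33.3% of probe sets, so a filter on these removed it. Neither background nor detection values were at hand, so it is unknown how far such a signal lies above background.

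PSAH, the photosystem I subunit, was uneven at 6 h. Over all probe sets the second 6 h array also stood apart. It correlated with the 24 h arrays at 0.930 and 0.933, against 0.9775 and 0.971 for the first 6 h array. The part of this in the PSAH signals was not tested. The log2 signal of PSAH was 3.80 and 4.13 on the 0 h arrays, 3.87 and 2.29 on the 6 h arrays, and 3.10 and 3.63 on the 24 h arrays. The first 6 h array lay between the controls and the second lay below every other array. Both 24 h arrays lay below both controls, the nearer by less than the gap between the controls. The 0 h arrays averaged 3.97 ± 0.23, the 6 h arrays 3.08 ± 1.12 and the 24 h arrays 3.37 ± 0.37 (SD, n = 2 each). The difference from 0 h was -0.89 ± 0.51 at 6 h and -0.60 ± 0.51 at 24 h (SE). The 6 h value rested on 1 array: it was -1.68 without the first 6 h array and -0.10 without the second. Between 24 h and 6 h PSAH differed by 0.29 ± 0.51, by 1.08 without the first 6 h array and by -0.50 without the second.

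**Figure D1:**
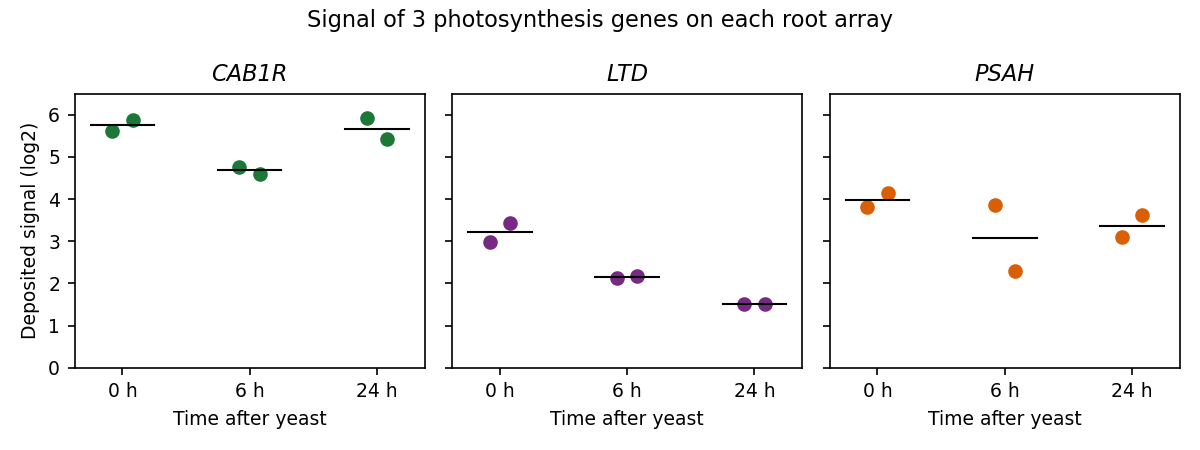
Deposited log2 signal (vertical axis) of CAB1R, LTD and PSAH at 0 h, 6 h and 24 h after the yeast (horizontal axis). Points are single arrays, 2 per time, and black lines are their means. CAB1R dips at 6 h to 4.77 and 4.59, LTD steps down to 1.52 and 1.51 at 24 h, and the PSAH arrays of 6 h lie far apart, at 3.87 and 2.29.

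In the deposited values the 3 genes read differently over the times, although all read lower at 6 h than at 0 h. Whether their courses differ was not tested. Under quantile normalization CAB1R differed from 0 h by -1.53 at 6 h and -0.72 at 24 h, and PSAH by -1.25 and -0.95. After cyclic loess the values were -1.65 and -0.76 for CAB1R and -1.04 and -0.91 for PSAH. In both scalings both genes were thus lower at 6 h than at 24 h. Over the 6 arrays CAB1R and LTD correlated at a Pearson coefficient of 0.21, CAB1R and PSAH at 0.47, and LTD and PSAH at 0.46. These coefficients only describe likeness, since the 6 arrays fall into 3 times. By array order at 6 h the 3 genes had no common pattern. The second 6 h array was far below the first for PSAH (2.29 and 3.87), near it for CAB1R (4.59 and 4.77) and slightly above it for LTD (2.18 and 2.14).

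In the limma fit over all 41770 probe sets with Benjamini-Hochberg adjustment, 0 of the 3 were called as lower at 6 h at an adjusted p under 0.05, a call made for 0.144% of all probe sets. At 24 h 1 of the 3, LTD, was called as lower, a call made for 0.237% of all probe sets, and 0 were called as higher (1.98%). Since these contrasts chose the genes, nothing is read from the counts. Between 24 h and 6 h no probe set was called (0%), and 2.63% had an unadjusted p under 0.05. Non-overlapping arrays were common over the whole table. Both 6 h arrays lay below both controls for 2 of the 3 genes and for 23.3% of all probe sets, and above them for 0 of the 3 and for 22.4% of all. Both 24 h arrays lay below both controls for 2 of the 3 and for 28% of all, and above them for 0 of the 3 and for 28.4% of all. Among the 14662 genes the shares were uneven, with 14.6% below and 34.3% above at 6 h and 16.3% below and 42.6% above at 24 h. Both 24 h arrays were above both 6 h arrays for 1 of the 3, CAB1R, and for 18.2% of all, and below them for 1 of the 3, LTD, and for 14.5% of all. Nothing is read from the call for LTD under other settings either, since the same contrasts chose it. It was kept with array weights, with median centring, and with an intensity trend and robust estimation. With the replicate number as a block it was lost. After quantile normalization and cyclic loess it was also lost, but there 24 and 52 probe sets passed in all, against 925 in the main fit. In the fit to only the 4 arrays compared, 0 probe sets passed at 24 h, so no gene could be called there. Leaving out 1 array leaves 1 array at its time, so calls are not read from such fits. The LTD difference at 24 h was -1.92 without the first control array and -1.47 without the second.

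The place of each gene among the signals of its own array gives a view that does not use the spread of the arrays. CAB1R stood at percentiles 91.9 and 93.6 of the 0 h arrays, 79.3 and 81.8 of the 6 h arrays, and 90.0 and 86.4 of the 24 h arrays. In this ranking both 24 h arrays were below both controls, which was not so for the deposited signals. LTD stood at 52.7 and 65.3 at 0 h, 32.6 and 27.2 at 6 h, and 10.6 and 7.26 at 24 h, again without overlap. PSAH stood at 73.4 and 79.0 at 0 h, 68.5 and 32.2 at 6 h, and 55.4 and 64.8 at 24 h. In rank, both of its 6 h arrays were below both controls.

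**Figure D2:**
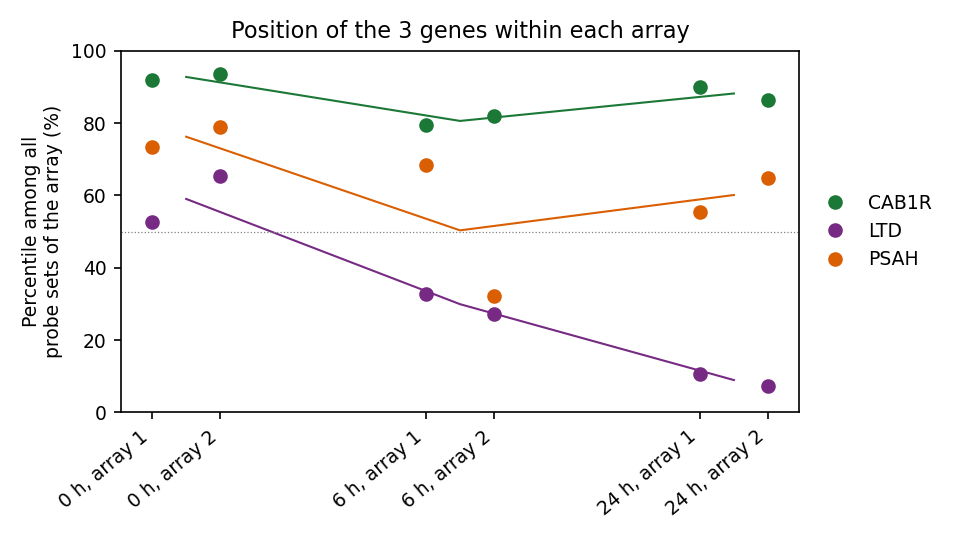
Percentile of each gene's signal among all 41770 probe sets of the same array (vertical axis) on each of the 6 arrays (horizontal axis), with lines joining the means of the 2 arrays of a time. LTD stands at percentiles 10.6 and 7.26 at 24 h and at 52.7 and 65.3 at 0 h, while CAB1R stays above percentile 79 throughout.

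Other scalings of the arrays moved CAB1R most. Between 6 h and 0 h it differed by -0.94 after centring on the array median, -1.53 after quantile normalization and -1.65 after cyclic loess. Its difference between 24 h and 0 h was 0.0038 after centring, -0.72 after quantile normalization and -0.76 after cyclic loess, so the return to the control level depended on the scaling. Relative to the median of all genes, CAB1R at 24 h lay at -0.34 in the deposited values, at -0.82 under quantile normalization and at -0.83 under cyclic loess. LTD at 24 h differed from 0 h by -1.62, -1.61 and -1.41 under centring, quantile normalization and cyclic loess, and PSAH by -0.53, -0.95 and -0.91. Between 24 h and 6 h, where the spreads of the arrays were closer, CAB1R was higher and LTD lower in each of these scalings, at 0.81 to 0.99 for CAB1R and -0.69 to -0.57 for LTD.

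**Figure D3:**
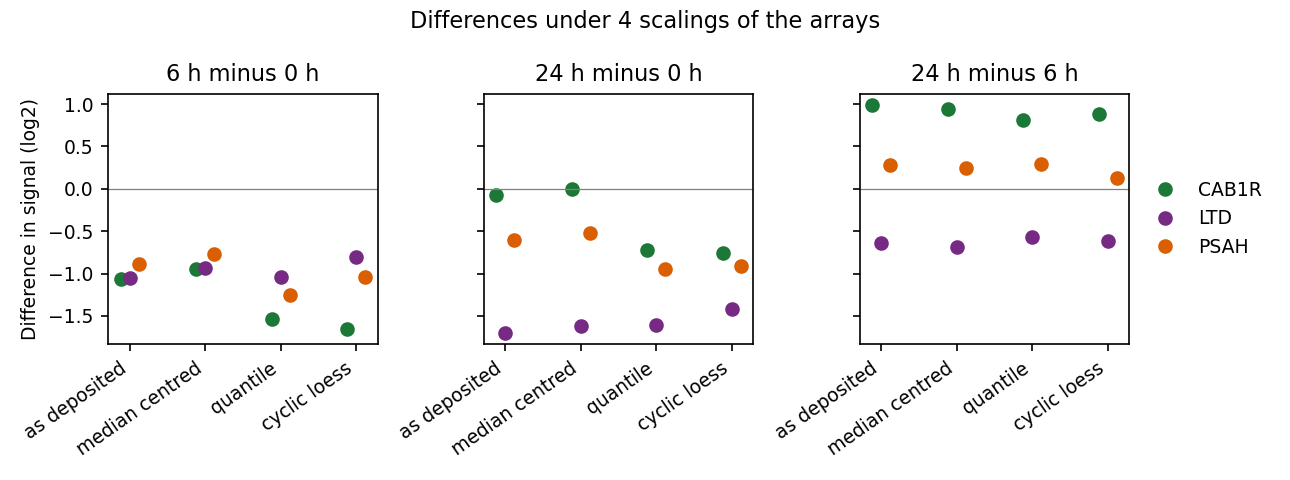
Log2 difference of CAB1R, LTD and PSAH (vertical axis) in the 3 comparisons (panels) under 4 scalings of the arrays (horizontal axis). The CAB1R points for 24 h against 0 h lie at -0.07 as deposited and at -0.72 and -0.76 after quantile normalization and cyclic loess, while LTD stays between -1.70 and -1.41.

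Other genes of photosynthesis and of the plastid put these courses in context. Lists written without reference to single values, but with earlier results of these arrays known, held 57 further genes with a probe set. Of the 57, 0 passed at 6 h, where 1.53% of all probe sets and 2.2% of all genes passed, and 0 passed at 24 h, where 2.21% and 3.08% did. At an unadjusted p under 0.05, limma gave 6 of the 57 as higher (10.5%) and 2 as lower (3.51%) at 6 h, beside 19.0% and 4.27% of all genes and 11.6% and 7.59% of all probe sets. At 24 h it gave 8 as higher (14.0%) and 1 as lower (1.75%), beside 22.1% and 3.94% of all genes and 13.6% and 7.85% of all probe sets. The median difference of the 57 was 0.28 at 6 h and 0.39 at 24 h, beside 0.20 and 0.26 over all genes and -0.06 and -0.04 over all probe sets. At 6 h 37 of the 57 read higher (64.9%) and 20 lower, and at 24 h 39 read higher (68.4%) and 18 lower. These shares were near those of all genes, of which 61.4% and 64.3% read higher.

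**Figure D4:**
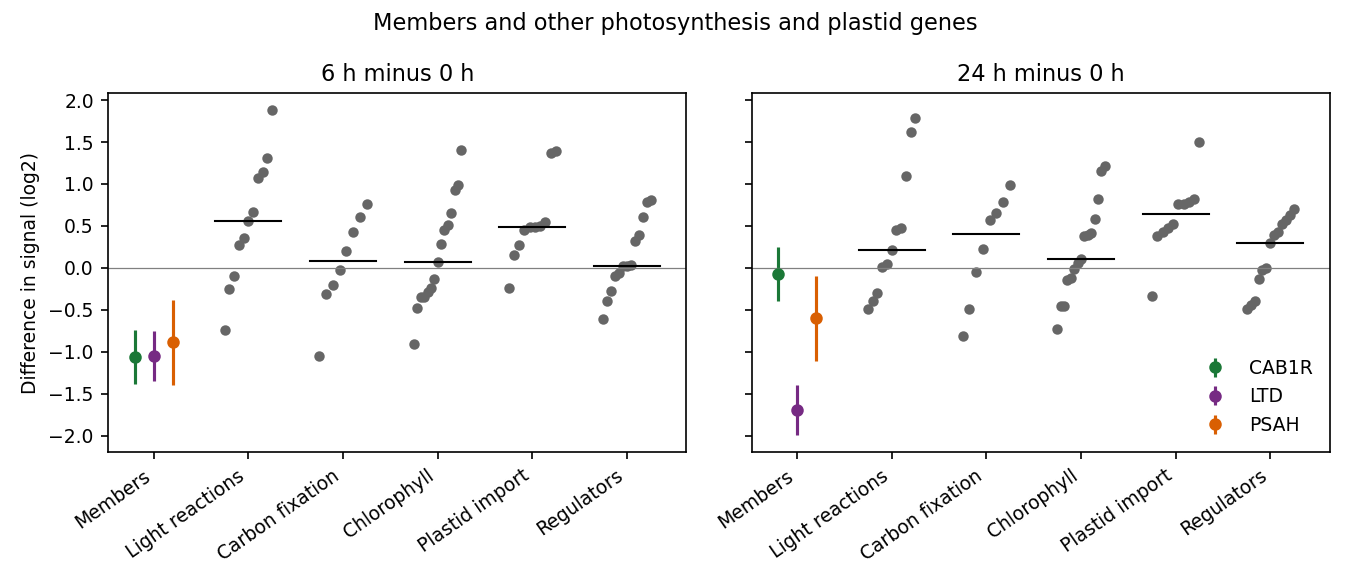
Log2 difference from 0 h (vertical axis) at 6 h (left) and 24 h (right) for CAB1R, LTD and PSAH, shown with SE bars, and for each gene of 5 lists (grey points, with a black line at the list median). At 6 h the 3 genes lie between -1.06 and -0.89, and the list medians lie between 0.02 and 0.56.

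Of the other genes named for chlorophyll a/b binding proteins, CAB2R and RCABP69 read lower than 0 h at both later times and RCABP89 read higher. CAB2R, a second chlorophyll a/b binding protein gene, read 3.64 and 5.13 on the 0 h arrays, 4.40 and 2.88 on the 6 h arrays, and 4.31 and 3.67 on the 24 h arrays. Its arrays overlapped at all times, and it differed from 0 h by -0.75 ± 0.62 at 6 h and by -0.39 ± 0.62 at 24 h (SE). RCABP89, named for a chlorophyll a/b binding protein, read 2.09 and 2.34 at 0 h, 3.85 and 2.71 at 6 h, and 3.33 and 2.04 at 24 h. Both of its 6 h arrays were above both controls, with a difference of 1.07 ± 0.52. RCABP69, named likewise, differed by -0.26 ± 0.36 at 6 h and by -0.50 ± 0.36 at 24 h. None of the 3 relatives passed at either time. Light-harvesting genes resemble each other in sequence, and whether the probes of one also bind transcripts of another is not known here.

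Photosystem I had 1 other listed subunit. PSAG, which encodes subunit G, read 2.17 and 2.28 at 0 h, 2.65 and 2.50 at 6 h, and 2.48 and 2.87 at 24 h. Its signals at both later times lay above both controls, with differences of 0.35 ± 0.30 at 6 h and 0.45 ± 0.30 at 24 h that did not pass. PSB28, of photosystem II, differed by -0.10 ± 0.32 and 0.05 ± 0.32 at these times. LFNR1, a leaf-type ferredoxin-NADP reductase, differed by 0.67 ± 0.31 and 0.01 ± 0.31. Its controls were very dim, at 1.35 and 1.69, which are percentiles 0.68 and 4.99 of their arrays.

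The light-reaction list, matched by symbol, held 11 genes besides CAB1R and PSAH. At 6 h 8 of these read higher and 3 lower, with a median of 0.56, beside 61.4% higher and 0.20 over all genes. At 24 h 8 read higher and 3 lower, with a median of 0.22, beside 64.3% higher and 0.26. The symbols also took in HCF106, of protein translocation. The ferredoxin-NADP reductase genes LOC4342399 and LOC4334338 are, unlike LFNR1, not named leaf-type, and LOC4334338 stood at percentiles 96.1 to 97.5 of the arrays. The largest differences of the list at 24 h were those of HCF106, LOC4342399 and atpI. Its medians therefore do not describe light-reaction genes alone. HCF106, a subunit of the thylakoid twin-arginine protein translocase, differed by 1.89 ± 0.48 at 6 h and by 1.78 ± 0.48 at 24 h (limma adjusted p = 0.0947 and 0.0967). Its controls were far apart, at 3.40 and 1.89, and its size turned on which control was kept. Without the first control array it was 2.64 at 6 h and 2.54 at 24 h, and without the second it was 1.13 and 1.03. The ferredoxin-NADP reductase gene LOC4342399 differed by 1.14 ± 0.51 at 6 h and 1.62 ± 0.51 at 24 h, and neither passed. Its 6 h value was 0.35 without the first 6 h array and 1.93 without the second, and cyclic loess gave 0.56 at 6 h and 0.92 at 24 h.

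The plastid genome itself was represented by atpI, which encodes a membrane subunit of the chloroplast ATP synthase. It had 4 probe sets, a pair of which held identical values and count as 1. The probe set with the highest mean read 9.52 and 9.37 at 0 h, 11.01 and 10.50 at 6 h, and 10.92 and 10.16 at 24 h. It differed by 1.31 ± 0.36 at 6 h and 1.09 ± 0.36 at 24 h (limma adjusted p = 0.111 and 0.143). A dimmer probe set of the same gene read 4.70 and 4.42 at 0 h, 8.15 and 7.80 at 6 h, and 7.82 and 7.34 at 24 h. It rose by 3.41 ± 0.32 at 6 h and by 3.02 ± 0.32 at 24 h (limma adjusted p = 0.00847 and 0.0130), and was singled out after its values were seen. All probe sets of atpI read higher at both later times, with unequal size. The direction was opposite to the 6 h readings of CAB1R, LTD and PSAH, and plastid DNA copies in the nuclear genome, known in rice, may share its sequence, which was not tested.

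**Figure D5:**
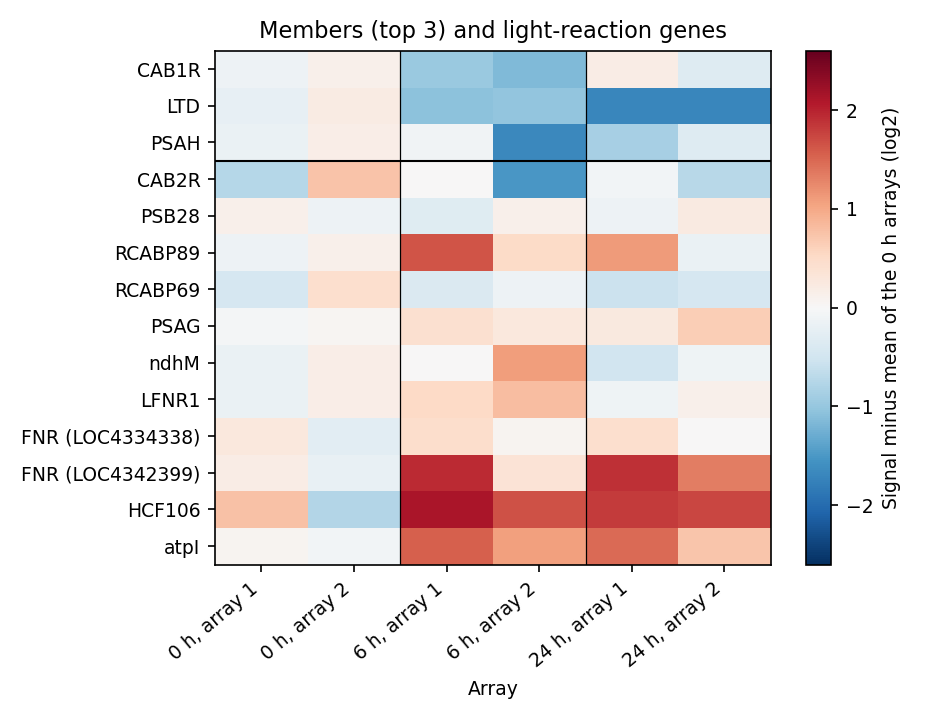
Signal of each gene (rows) on each of the 6 arrays (columns) minus the mean of its 0 h arrays, on the log2 scale (colour). CAB1R, LTD and PSAH are the top 3 rows and the 11 other genes of the light-reaction list follow. LTD is lowest at 24 h, and HCF106 and atpI are above the 0 h mean on all 4 later arrays.

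LTD acts on imported proteins in the plastid stroma, and 10 other genes were listed, by symbol, for plastid import, folding and protein turnover. At both times 9 of the 10 read higher, beside 61.4% of all genes at 6 h and 64.3% at 24 h. The remaining 1, the protease gene FTSH3, read lower. The list median was 0.49 at 6 h and 0.64 at 24 h, beside 0.20 and 0.26 over all genes, and 0 passed at either time. The plastid chaperone CLPB-C differed by 1.37 ± 0.35 and 1.50 ± 0.35 (limma adjusted p = 0.0942 and 0.0696). The protease gene FTSH1 differed by 1.39 ± 0.34 at 6 h and 0.82 ± 0.34 at 24 h, and neither passed. Its 6 h difference was 1.77 without the first control array, 1.02 without the second and 0.91 after cyclic loess. Its 24 h difference was 0.45 without the second control array and 0.18 after cyclic loess. The organelle in which each FTSH protease acts is not given here, so some of the 10 may act outside the plastid. CLPC3, a Clp chaperone, differed by 0.46 ± 0.35 and 0.79 ± 0.35, and TATC, another subunit of the twin-arginine translocase, by 0.28 ± 0.39 and 0.76 ± 0.39. TOC75, the channel of the outer envelope, differed by 0.50 ± 0.46 and 0.77 ± 0.46. FTSH3 differed by -0.25 ± 0.30 and -0.33 ± 0.30, less than LTD at the same times. Its signals were dim, from 1.35 to 1.94, at percentiles 1.87 to 12.7 of the arrays. The proteins of the stromal signal recognition particle, to which LTD hands its cargo, had no probe set matched by name.

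Chlorophyll synthesis and breakdown were read by 15 genes, of which 0 passed at either time. At 6 h 8 read higher and 7 lower, with a median of 0.07, and at 24 h 9 read higher and 6 lower, with a median of 0.11. NYC1, a chlorophyll b reductase of chlorophyll breakdown, differed by 1.41 ± 0.35 at 6 h and 1.21 ± 0.35 at 24 h (limma adjusted p = 0.0865 and 0.108). HEMB and HEMD, early enzymes of tetrapyrrole synthesis, differed by 0.92 ± 0.31 and 0.45 ± 0.33 at 6 h and by 0.58 ± 0.31 and 1.16 ± 0.33 at 24 h. DVR, the divinyl reductase of late chlorophyll synthesis, was the lowest of the list at both times, at -0.91 ± 0.33 and -0.73 ± 0.33. Both DVR arrays of each later time lay below both controls, at 2.38 and 1.93 at 6 h and 2.09 and 2.57 at 24 h, against 2.96 and 3.16 at 0 h.

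The list for carbon fixation and photorespiration, matched by symbol, held 8 genes, with a median of 0.09 at 6 h and 0.40 at 24 h, and 0 passed. Whether its members PPDKB, PPDK2 and ME6 serve carbon fixation in rice was not tested. RBCS-C, a small subunit of Rubisco, read 2.46 and 3.29 at 0 h, 3.68 and 2.93 at 6 h, and 3.45 and 2.75 at 24 h, with overlapping arrays. RCA, Rubisco activase, differed by -0.03 ± 0.37 at 6 h and -0.50 ± 0.37 at 24 h. GDCSH, the H protein of glycine decarboxylase, differed by -1.05 ± 0.35 and -0.81 ± 0.35, and both of its arrays at each later time were below both controls. PPDK2, a pyruvate phosphate dikinase, differed by -0.32 ± 0.37 at 6 h and 0.99 ± 0.37 at 24 h, and like CAB1R it was higher at 24 h than at 6 h on both arrays, by 1.31 ± 0.37, which did not pass. The brighter of the 2 probe sets of PPDKB differed by 0.77 ± 0.40 at 6 h and 0.65 ± 0.40 at 24 h and the dimmer by -0.30 and -0.25, so the direction of this gene was not settled. Without the second control array the brighter one differed by 0.24 and 0.12. The malic enzyme gene ME6 differed by 0.20 ± 0.28 and 0.57 ± 0.28 at these times.

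Regulators of chloroplast development and light perception were read by 13 genes, of which 8 read higher and 5 lower at each time and 0 passed. The list median was 0.02 at 6 h and 0.29 at 24 h. GLK1 and GLK2, transcription factors that switch on light-harvesting and chlorophyll genes, differed by 0.33 ± 0.34 and 0.79 ± 0.37 at 6 h and by 0.53 ± 0.34 and 0.29 ± 0.37 at 24 h. Both read higher at 6 h, where CAB1R read lower, and whether these readings are linked was not tested. The GLK1 arrays of 6 h overlapped with the controls. Both genes were dim, GLK1 at percentiles 6.72 to 49.7 of the arrays and GLK2 at 12.8 to 59.1. Among the red-light receptors PHYA differed by 0.02 ± 0.30, PHYB by 0.60 ± 0.37 and PHYC by 0.81 ± 0.41 at 6 h. V2, a guanylate kinase gene of early chloroplast development, differed by -0.61 ± 0.34 at 6 h and -0.44 ± 0.34 at 24 h, and wsl8 by -0.10 ± 0.32 and 0.57 ± 0.32.

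Among genes with a symbol, those nearest to the 3 courses were outside the photosynthesis and plastid lists. Likeness was the Pearson coefficient over the 6 arrays among 1246 genes with a symbol and a range of at least 1 on the log2 scale. Nearest to CAB1R was EXPB16, named as a beta-expansin (0.946), followed by PCF7 (0.922) and HSF1 (0.873). In the deposited values EXPB16 differed from 0 h by -0.89 at 6 h and by 0.20 at 24 h. Between 24 h and 6 h it differed by 1.08. It was picked for its likeness to CAB1R, whose own 24 h reading depended on the scaling. Nearest to LTD were ADPRT-3 (0.970), the kinesin gene KIN14P (0.959) and MtN3-like (0.958). KIN14P differed from 0 h by -0.98 at 6 h and -1.16 at 24 h, a smaller second step than that of LTD. Nearest to PSAH were EXLA1, an expansin-like gene (0.932), RAB16D (0.921) and GH3.2 (0.901). Since these 3 were picked for likeness to PSAH, nothing is read from the low second 6 h array that they share with it. On that array they read 4.75, 3.46 and 3.48, against 5.83, 4.53 and 4.88 on the first. That array also stood apart over all probe sets. Among 9427 genes with such a range, 26 came as close to PSAH as EXLA1 did, 4 as close to CAB1R as EXPB16 and 3 as close to LTD as ADPRT-3.

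The genes beside them on the chromosome were read as well. Their order was taken from RefSeq assembly ASM3414082v1. Next to CAB1R, bip103 differed by 0.58 at 6 h and 0.25 at 24 h. The gene before LTD, LOC4343401, differed by -0.36 and -0.30. On one side of PSAH, LOC4339594 differed by 0.22 and 0.05. On its other side LOC4339592 differed by 2.04 at 6 h and rose by 2.17 at 24 h (limma adjusted p = 0.0606 and 0.0479), with 5.83 and 5.63 on the 24 h arrays, against 4.11 and 3.01 on the 0 h arrays. PSAH read lower on both of these 24 h arrays than on either control.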

How the data were processed

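Total RNA of rice roots was labelled with biotin by the GeneChip WT Terminal Labeling kit, per the labels' protocols. The authors deposited 1 table of log2 signals, the base being read from the range of the values, and used Affymetrix Expression Console, per the submitters' processing notes. Its version, the summarisation, the background correction and the normalization are not given in the sources. Names came from the platform annotation (15299 with 1 gene, 436 with several, 26035 with none) and RefSeq names, which 1948 of 14662 genes had. The probe set with the highest mean stood for a gene.

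With 1 mean per time, all 6 arrays and 41770 probe sets were fitted with limma 3.58.1 in R 4.3.3, leaving 3 residual and 5.08 prior degrees of freedom. P-values were adjusted by Benjamini-Hochberg, with a threshold of 0.05. Passed, called and rose refer to it. The fit was tested on simulated data. Python 3.11.15 made lists and plots.

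The 3 genes, and the lists, were chosen with earlier results of these data known. Besides the 3, up to 4 genes per list are named by a rule, those lowest in unadjusted p against 0 h. Other listed genes, and those near the 3 on the chromosome or in course, are named for family, position or likeness. The lists were matched by symbol, and names that belonged to another kind of gene, such as the nuclear atpB, were left out. Alternatives were other scalings, array weights, an intensity trend with robust estimation, a filter on the lowest 33.3% of probe sets, averaged probe sets, a fit to 4 arrays, the replicate block and leaving out each array. Precision is limited by 2 arrays per time. No sequence is shown, since no sequence table was used here.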

Additional observations from a re-analysis of the deposited data

Results flagged for a closer look

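Among the 3 genes and the 57 listed ones, ndhM, a subunit of the chloroplast NADH dehydrogenase-like complex, moved to opposite sides of the mean of its controls. The 0 h arrays averaged 2.41 ± 0.24, the 6 h arrays 2.97 ± 0.77 and the 24 h arrays 2.11 ± 0.26 (SD, n = 2 each), with a difference of -0.86 ± 0.41 between 24 h and 6 h. That both 6 h arrays lay above and both 24 h arrays below the control mean was not itself tested, and the first 6 h array lay between the controls.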

How the results depend on the processing

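The 2 arrays per time and the unknown background of dim signals limit these results. Probe sets passing at 6 h (641) numbered 187 with array weights, 1146 after median centring, 119 after cyclic loess, 1062 with trend and robust estimation, 81 with 4 arrays, 81 after quantile normalization and 0 to 2249 leaving out 1 array. At 24 h (925) they numbered 1502 with array weights, 52 after cyclic loess, 0 with 4 arrays, 24 after quantile normalization and 0 to 2793 leaving out 1 array. With the replicate number as a block 384 and 570 passed. Deviations of same-numbered arrays correlated at 0.0467 (0 h and 6 h), 0.0333 (0 h and 24 h) and 0.155 (6 h and 24 h), so the numbers were not taken to pair the samples. Of the 57 listed genes, 1 passed at each time with trend and robust estimation (atpI) and 1 at 6 h with averaged probe sets (atpI). Counts of passing genes are not given for fits leaving out 1 array, since 1 array is then left at its time. Leaving out 1 array gave CAB1R -0.33 to 0.18 (24 h against 0 h) and 0.73 to 1.25 (24 h against 6 h), LTD -1.27 to -0.83 (6 h) and -1.92 to -1.47 (24 h), and PSAH -1.68 to -0.10 (6 h against 0 h) and -0.50 to 1.08 (24 h against 6 h). Cyclic loess gave CAB1R -1.65 and -0.76 and LTD -0.80 and -1.41 at 6 h and 24 h, and quantile normalization gave CAB1R -1.53 and -0.72. Small differences changed sign. At 6 h ME6 became -0.17 after cyclic loess and -0.044 after quantile normalization, and wsl8 0.023 after centring. At 24 h PPDKB became -0.021 after cyclic loess, HEMB -0.11 and -0.0068, and wsl8 -0.13 and -0.079, after cyclic loess and quantile normalization. Leaving out 1 array gave LFNR1 -0.16 to 0.18 at 24 h and, at 6 h, PPDK2 -0.80 to 0.16, TATC -0.27 to 0.82 and wsl8 -0.37 to 0.17. The cause was not tested.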
